A study of Mus musculus with 42 samples.

Results

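The genes described here are the cytoplasmic ribosomal protein genes, which encode the protein part of every cytosolic ribosome. They were taken by name and annotated type from the tables of 3 cohorts of mouse kidneys. A gene entered when it was protein coding, carried a symbol of the form Rpl or Rps with a number (or was Rpsa, Fau, Rplp0, Rplp1 or Rplp2), and had a mean of at least 5 FPKM over the control libraries of every cohort. FPKM is the number of sequenced fragments on a gene scaled to its length and to the size of the library. Of 54532 genes in each table, 81 matched by name and type and 76 met the minimum. They comprised 31 proteins of the small subunit, 42 of the large subunit and the 3 proteins of the P stalk. Membership was the same 76 genes when the minimum was taken over all libraries. The rule uses no difference between genotypes or treatments, but the family was chosen with earlier results of these data known.

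The study asked whether loss of the transcription factor Tfeb changes the kidney disease caused by loss of Tsc2, a brake on the kinase complex mTORC1, and whether the mTORC1 inhibitor rapamycin acts in the same kidneys. RNA of 42 whole kidneys was sequenced, 3 mice in each of 14 groups, all on a C57BL/6 background. In the Cagg cohort a ubiquitous, tamoxifen-inducible Cre deleted floxed genes, the drug reaching pups through their lactating mothers, and kidneys were taken at P30 from control, Tsc2 KO, Tfeb KO and double knockout (DKO, Tsc2 and Tfeb) mice. Its controls carried Cre without floxed Tsc2 and also received tamoxifen. In the Ksp cohort Cre was driven by the cadherin-16 promoter, which is active in tubular epithelium, and the same 4 genotypes were harvested at P50, the controls being Cre-negative. The Ksp drug cohort held control, Tsc2 KO and DKO mice of the same line that received vehicle or rapamycin (1 mg/kg) in 11 injections from P25 and were harvested at P50. The libraries, of poly-A RNA, do not record the strand, and whole kidneys hold all cell types, deleted or not.

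A ribosome is built from ribosomal RNA and a single copy of most ribosomal proteins, and the mRNAs of these genes are among the abundant ones of most cells. These mRNAs begin with a C followed by an unbroken run of pyrimidines, the TOP motif, and the protein LARP1 holds them out of translation when mTORC1 is inactive. Active mTORC1 therefore raises their translation, which RNA sequencing does not measure, while LARP1 also influences how stable these mRNAs are. RPS6 itself is the classic phosphorylation target of the S6 kinases downstream of mTORC1.

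To show the motif at these genes, the 30 bases around the annotated start of 7 members are given here, from 10 bases before the start to 20 bases from it on. They were read from RefSeq on GRCm38.p6, 5′ to 3′ on the strand of the gene. Capitals mark a C at the start itself followed by at least 4 bases that are each C or T. The first 6 hold such a tract and were chosen to span both subunits and the P stalk. Rpl22, to which several results below return, holds none at its annotated start. The windows lie at chr4:86857348-86857377 (minus strand) for Rps6, chr19:6057937-6057966 (plus) for Fau, chr3:90213629-90213658 (minus) for Rps27, chr17:33955646-33955675 (minus) for Rps18, chr7:141447641-141447670 (plus) for Rplp2, chr16:33056472-33056501 (plus) for Rpl35a and chr4:152325716-152325745 (plus) for Rpl22.
Rps6: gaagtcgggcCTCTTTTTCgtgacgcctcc
Fau: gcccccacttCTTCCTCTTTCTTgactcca
Rps27: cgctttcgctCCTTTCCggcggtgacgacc
Rps18: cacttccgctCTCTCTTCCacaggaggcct
Rplp2: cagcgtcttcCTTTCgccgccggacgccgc
Rpl35a: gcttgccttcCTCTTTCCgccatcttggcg
Rpl22: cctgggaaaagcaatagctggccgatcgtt

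The promoter table held 67 starts of 56 members. A tract began at the start base in 13 of these 67 starts (19.4%), against 2.51% of all 32851 starts of the table. Anywhere within the 30 bases a tract began in 41 of 67 (61.2%), against 35.8% of all starts. The letters CCGGAAG, the core that ETS-family factors such as GABPA bind, were found on either strand in the 300 bases from 250 before to 50 after the start in 24 of 67 (35.8%), against 8.86% of all starts. On GRCm38, the build of the files, the whole genes lie at chr4:86854660-86857412 (Rps6), chr5:115559467-115563727 (Rplp0), chr4:152325742-152334071 (Rpl22) and chr9:106429454-106431568 (Rpl29). The spans of Rps6 and Rpl22 begin at other bases than the RefSeq starts used for their windows. A match is a description of the letters and not a measured site, and an annotated start can differ from the one used in kidney.

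Before the results, several libraries stood apart. Total counts ranged from 14926050 to 22807605 with a median of 17802376, and the members took 1.40% to 3.63% of them. Tsc2 was measured at 10.6, 10.6 and 9.81 FPKM in Cagg controls and 4.06, 4.14 and 4.55 FPKM in Cagg Tsc2 KO libraries, a log2 fold change of -1.22, and it also fell in Tsc2 KO of the other cohorts (-1.20 in both). In the Cagg cohort 4 libraries are named differently in the 2 tables, 2 of them by genotype, and the names of the FPKM table are used here. Under those names Tsc2 was at 5.26, 4.82 and 5.64 FPKM in DKO and 9.34, 9.05 and 10.2 in Tfeb KO. Among the Cagg libraries 6 of 12 lacked Xist, the transcript of the inactive X chromosome, namely all controls, Tsc2 KO 2, DKO 1 and DKO 2, so sex was unevenly spread over the genotypes of that cohort, while every Ksp and Ksp drug library held Xist. In the Ksp drug cohort the control vehicle 2 and Tsc2 KO rapamycin 2 libraries were low in the shorter members. Relative to the cohort mean, the 25 shortest members had a median log2 level of -0.50 in the first and -0.62 in the second, against -0.07 and -0.15 for the 25 longest. Ksp Tfeb KO 2 was high over all members, with a median 0.91 above the cohort mean, and Ksp DKO 1 was rich in macrophage transcripts, with a summed 799 FPKM over 12 marker genes against 79.6 and 106 in the other DKO mice.

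Levels of the 76 members in control kidneys spanned a wide range. Rplp1, a P stalk protein that helps recruit elongation factors, was highest at a mean of 1195, 787 and 798 FPKM in Cagg, Ksp and Ksp drug (vehicle) controls. Ranked by the mean of these values over the cohorts, Rpl36 came next (716, 427 and 395 FPKM). After it came Rplp0, the P stalk protein that anchors Rplp1 and Rplp2 (550, 469 and 464 FPKM), and Rps15 (585, 474 and 357 FPKM). Fau, whose product is a ubiquitin-like protein fused to a small-subunit protein, followed (427, 323 and 328 FPKM). Within single cohorts the order below Rplp1 differed. For example, Rplp0 lay above Rpl36 in Ksp and Ksp drug controls, and Rps15 lay above Rplp0 in Cagg and Ksp controls. In Cagg controls Rpl17 (524 FPKM) and Rps2 (500 FPKM) lay above Fau. Lowest by the mean over the cohorts were Rpl13a, with 7.77, 6.10 and 5.55 FPKM, just above the minimum, and Rps15a, with 28.1, 23.4 and 21.0 FPKM. In Ksp and Ksp drug controls Rpl21 lay below Rps15a, at 14.6 and 19.9 FPKM.

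The 5 genes left out were Rpl10l, Rpl39l and Rpl3l, paralogues known from testis or muscle, and Rpl24 and Rps10, which encode ordinary ribosomal proteins. Rpl24 was listed at 0.747, 0.584 and 0.308 FPKM and Rps10 at 0.906, 0.837 and 0.648 FPKM in the 3 sets of controls. In the GENCODE M21 annotation 47.0% of the exon bases of Rpl24 also belonged to another gene, and 81.7% of its 50-base words occurred in other genes. For Rps10 these shares were 28.7% and 51.8%. The part of shared reads in their low values was not tested.

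Shared sequence is common among the members. A median of 41.0% of a member's 50-base words occurred in transcripts of other genes, and 75 of 76 members shared at least one word, while 41 had no exon base inside another gene. Of 281 pseudogenes of ribosomal proteins in the tables, 33 passed the filter on low counts in the Cagg cohort. The authors' counting could therefore split reads between a member and its copies, and levels of single members are uncertain to that extent.

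Most members varied little and varied together. The SD of log2 FPKM between mice of a group, pooled over the 14 groups, had a median of 0.229 over the members, and 59 members were under 0.3. Taken as deviations from the group means over the 42 libraries, a member's log2 level had a median Pearson correlation of 0.859 with the median of the other members, and 49 members reached 0.8. All members of a library share its depth and scaling, so this describes the tables and carries no test.

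Rpl29, a surface protein of the large subunit, was the exception, with a within-group SD of 2.06. It was listed at 69.3, 79.1 and 0.297 FPKM in Ksp controls and at 143, 0.178 and 184 FPKM in Ksp drug Tsc2 KO rapamycin. In Cagg controls it stood at 73.7, 61.1 and 214 FPKM, and in Cagg Tfeb KO at 372, 57.5 and 51.9 FPKM. The 2 lowest values rest on 3 and 6 counts, and the next most variable members were Rpl7a (SD 0.646) and Rps28 (0.585). Rpl29 shared 47.9% of its words with 80 other genes.

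Cagg controls had a higher mean FPKM than Ksp controls for nearly all members. The ratio of control means, Cagg over Ksp, had a median of 1.46, was at least 1.5 for 36 members and was below 1 for 3 (Rps6, Rps25 and Rps26). It was 10.8 for Rpl17, 8.14 for Rpl7a and 7.75 for Rpl21, proteins of the large subunit whose words recur in 51, 120 and 82 other genes. The cohorts differ in age, Cre line and sex and their tables were normalized separately, so these sources cannot be told apart.

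**Figure D1:**
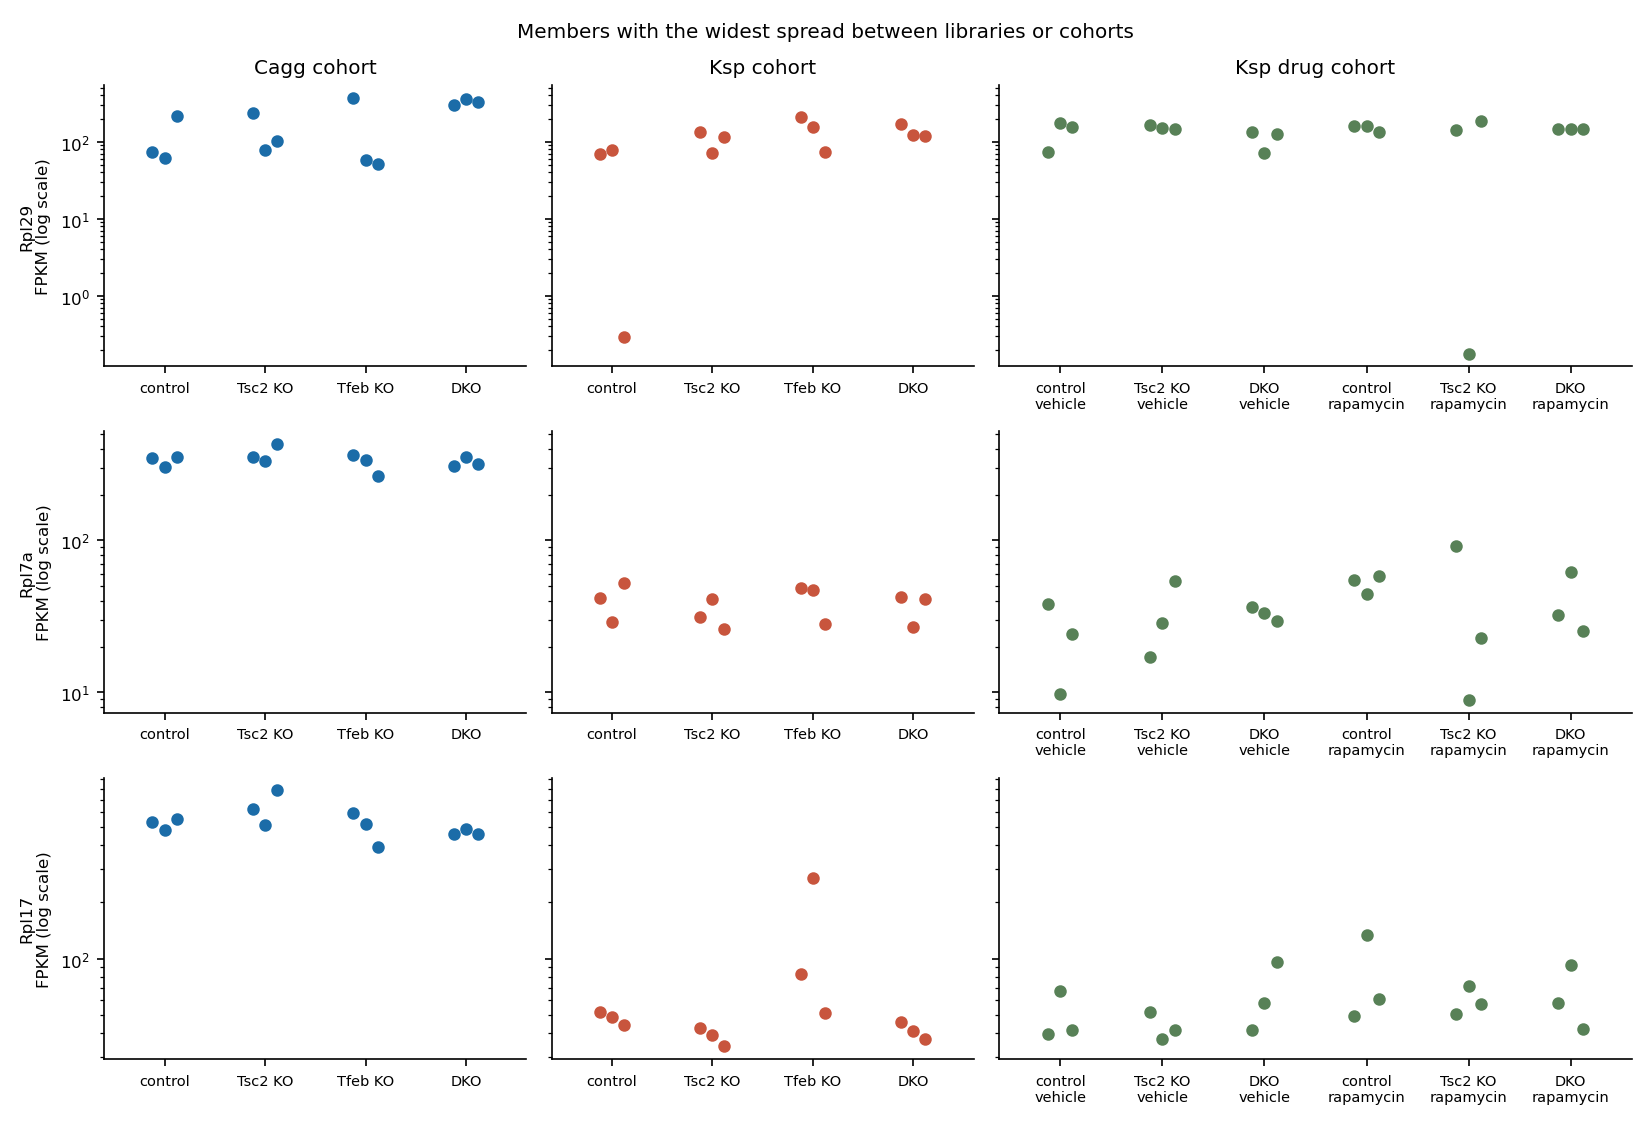
FPKM (log axis) of Rpl29, Rpl7a and Rpl17 in each of the 42 libraries, by cohort and group, one point per mouse. Rpl29 drops to 0.297 in one Ksp control and to 0.178 in one rapamycin-treated Tsc2 KO library, and the control means of Rpl7a and Rpl17 are 8.14 and 10.8 times higher in the Cagg cohort than in the Ksp cohort.

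The first comparison asked how the members changed when Tsc2 was lost throughout the body. In Cagg Tsc2 KO kidneys 25 of 76 members increased and 0 decreased, and with Xist, which differed between the groups, as a covariate 0 were called. The members took 2.43%, 2.26% and 2.47% of counts in controls and 3.17%, 2.76% and 3.63% in Tsc2 KO, with no overlap. Of the 76 members 75 had a higher mean, the median log2 fold change was 0.35, with a range from -0.03 to 0.69, and over all 8090 genes that could be called it was 0.06. A gene was called when edgeR's adjusted p was at most 0.05 and its mean reached 5 FPKM in a group compared. The 25 increased and 0 decreased members stand against 23.0% and 15.5% of all such genes. At an unadjusted p of 0.05 there were 43 members, against 50.2% of genes. For 45 members every Tsc2 KO library lay above every control (library-scaled counts), against 31.8% of genes.

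The calls came from both subunits. Of the 31 small-subunit members 14 increased, with a median of 0.38. Of the 45 large-subunit and P stalk members 11 increased, with a median of 0.35, beside 23.0% of all genes. The difference between the subunits was not tested.

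Rps6, the S6 kinase target, was measured at 210, 197 and 188 FPKM in controls and 279, 236 and 294 FPKM in Tsc2 KO. The lowest Tsc2 KO mouse was above the highest control, and the gene rose (log2 fold change 0.51, SE 0.13, adjusted p = 0.0138). Rplp0 stood at 559, 534 and 558 FPKM in controls and 801, 645 and 927 FPKM in Tsc2 KO, again without overlap, and rose (0.58, SE 0.15, adjusted p = 0.0133).

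The steepest rise was that of Rpl12, which sits at the base of the P stalk. It was at 68.3, 59.8 and 72.2 FPKM in controls and 108, 83.8 and 117 FPKM in Tsc2 KO (0.69, adjusted p = 0.00774). All Tsc2 KO libraries lay above all controls. Also called were the small-subunit proteins Rps16 (0.61) and Rps20 (0.60), Rpl5 (0.60), which binds 5S ribosomal RNA and MDM2, Rpl10 (0.54), which joins the large subunit last, and Rpl3 (0.47), which lies close to the peptidyl transferase centre.

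Not every member with a special role passed the test. Rpsa, also known as the laminin receptor, had a log2 fold change of 0.34, Fau 0.28, Rps27a, the ubiquitin fusion, 0.36, Rps27 0.26 and its p53-responsive paralogue Rps27l 0.17. Rplp1 had 0.40, Rplp2 0.36, and Rpl39, a small protein of the exit tunnel, 0.30. Rpl22, an RNA-binding large-subunit protein with a paralogue, Rpl22l1, was the only member with a lower mean (71.6, 66.2 and 64.4 FPKM in controls, 58.8, 54.7 and 75.9 in Tsc2 KO, -0.03). Its groups overlapped.

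The sex of the mice moved with this comparison. Tsc2 KO 2, the male without Xist as were all 3 controls, lay above every control for 45 members (median log2 difference 0.15), against 44.0% of genes, while the female Tsc2 KO 1 and 3 did so for 70 (0.32) and 73 (0.58), against 47.9% and 45.1% of genes. These are values of single libraries, whose members share the level of the library, and they carry no test. With Xist as a covariate edgeR called 0 members, against 13.5% of genes increased and 9.20% decreased, while the members' median was 0.30, and it called 42 with library totals and 13 with the library names of the count table. Without control 1, 2 or 3 the number increased was 11, 8 and 7, and without Tsc2 KO 1, 2 or 3 it was 12, 36 and 10. Rplp0, Rpl12 and Rps16 passed whichever library was left out, whereas Rps6, Rpl3 and Rpl5 did not pass without control 3, Rpl10 not without control 2 and Rps20 not without control 1 or 2 or Tsc2 KO 1 or 3.

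Among other genes with TOP mRNAs, 13 of 24 on a list of translation factors and similar genes increased and 2 decreased (median 0.39), beside the 23.0% and 15.5% of all genes. With Xist as a covariate 4 increased and 1 decreased (median 0.37), beside 13.5% and 9.20% of all genes. The 13 included the elongation factors Eef1a1 (0.70) and Eef2 (0.62), Tpt1 (0.69) and the ribosome-associated Rack1 (0.68), while Eif4a2 fell (-1.23) and so did Nap1l1 (-0.32). Of 16 regulators of such mRNAs 4 increased and 0 decreased, namely Larp1 (0.28), the translational repressors Eif4ebp1 (1.44) and Eif4ebp2 (0.44), and Myc (1.63), and with Xist as a covariate 3 increased and 0 decreased. Of 77 mitochondrial ribosomal protein genes tested 1 increased and 9 decreased (median -0.11). Cell type markers moved too, with 5 of 12 macrophage genes increased (median 0.75) 10 of 12 proximal tubule genes decreased (-1.12) and 6 of 11 proliferation genes increased (0.59). The summed level of the macrophage genes was 101 to 135 FPKM in controls and 187 to 231 in Tsc2 KO, and that of the proximal tubule genes 2766 to 3174 and 755 to 1527. Whole kidneys were sequenced, so a change in the number of a kind of cell and a change of RNA per cell cannot be told apart, and the part of cell make-up in the members' values was not tested.

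**Figure D2:**
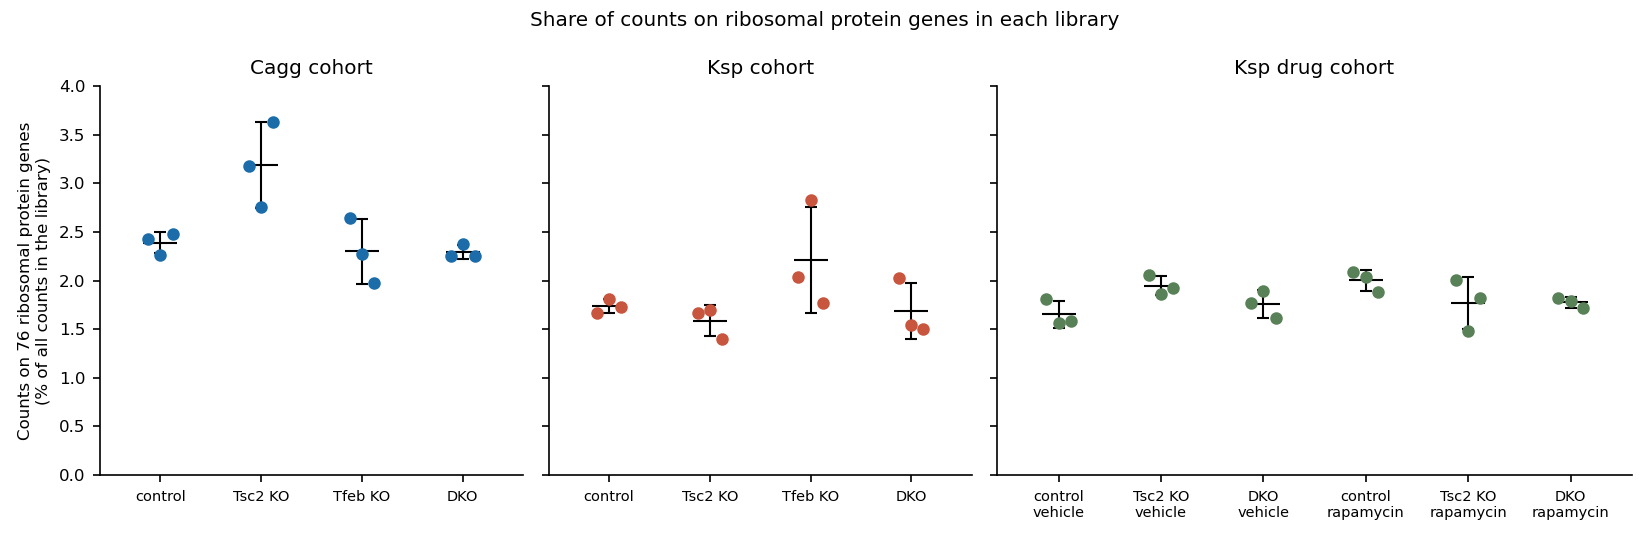
Percent of all gene counts of a library that fell on the 76 members, one point per mouse, with the mean and SD of each group of 3 as bars. The 3 Cagg Tsc2 KO libraries (2.76% to 3.63%) lie above the other Cagg libraries, and no such separation is seen for Tsc2 KO in the Ksp cohort.

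When Tfeb was deleted together with Tsc2, 15 of 76 members decreased relative to Tsc2 loss alone, and 2 did so with Xist as a covariate. DKO libraries gave the members 2.25%, 2.37% and 2.25% of counts, all below the 3 Tsc2 KO libraries. Of the 76 members 74 had a lower mean in DKO than in Tsc2 KO (median -0.38, all genes -0.04), and 0 increased and 15 decreased, against 6.91% and 7.56% of genes. The number decreased was 24 with DESeq2, 50 with library totals, 6 with only the groups compared and 5 with the replicate block. At an unadjusted p of 0.05 the number was 51, against 33.8% of genes. For 50 members every DKO library lay below every Tsc2 KO library, against 21.9% of genes.

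The 15 comprised 9 small-subunit and 6 large-subunit or P stalk members, where 7.56% of all genes decreased. Rpl10a, a large-subunit protein, fell most (-0.73, SE 0.16, adjusted p = 0.0135), from 158, 135 and 197 FPKM in Tsc2 KO to 97.1, 106 and 98.0 in DKO. Rps4x, encoded on the X chromosome, went from 352, 298 and 407 to 216, 228 and 218 FPKM (-0.70, adjusted p = 0.0136). Both groups were well apart in each case.

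Rpl5 (-0.69), Rps19, the gene most often mutated in Diamond-Blackfan anaemia (-0.69), and Rpl12 (-0.57) were among the largest of the other decreases. Rplp0 (-0.55), Rps6 (-0.51) and Rpl3 (-0.51) also fell. Rpl10 (-0.43, adjusted p = 0.0761) did not pass. Rps27l (0.10) and the erratic Rpl29 (1.21, adjusted p = 0.304) were the only members with a higher mean.

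The Tsc2 KO libraries are shared with the first comparison, so the reversal of sign is not independent of it. The 2 males of DKO and the male Tsc2 KO give a within-sex view, in which Tsc2 KO lay above both DKO libraries for 51 members (median log2 difference 0.15), against 43.0% of genes, and the females Tsc2 KO 1 and 3 lay above DKO 3 for 72 (0.48), against 40.9% of genes. One arm of each is a single library (Tsc2 KO 2 and DKO 3), so these are descriptions with no test. With Xist as a covariate 2 members decreased, against 4.22% of genes, and the median was -0.34. Without Tsc2 KO 1, 2 or 3 the number decreased was 2, 23 and 4, and without DKO 1, 2 or 3 it was 3, 2 and 0. Rpl10a and Rps4x lost their call without DKO 3 alone, and the other decreases named here did so without 3 or more of the 6 libraries. Of the other TOP genes 1 increased and 10 decreased (median -0.40), beside 6.91% and 7.56% of all genes. With Xist as a covariate 1 increased and 4 decreased (median -0.38), beside 5.02% and 4.22% of all genes. Of the 12 proximal tubule markers 6 increased, beside the 6.91% of all genes.

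Against controls, DKO kidneys showed no called member. The median was -0.02, 30 members were higher and 46 lower, and edgeR called 0 increased and 0 decreased, against 10.2% and 4.73% of genes. There were 0 members at an unadjusted p of 0.05, against 31.2% of genes, and DESeq2 also called 0. Rpl29 was highest (1.54, adjusted p = 0.215) and Rpl22 lowest (-0.26, adjusted p = 0.307), with 53.2, 57.2 and 53.4 FPKM in DKO, all below the controls. Rps6 was at 186, 195 and 196 FPKM (-0.00433) and overlapped the controls.

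Loss of Tfeb alone gave no called member in the Cagg cohort. Every Tfeb KO library held Xist and every control lacked it, so sex and genotype cannot be told apart here. The members took 2.65%, 2.28% and 1.98% of counts, a wide spread around the controls. The median was -0.07 (all genes -0.04) with 67 members lower, and 0 increased and 0 decreased by edgeR, against 0.0128% of genes each way. At an unadjusted p of 0.05 there was 1 member, against 7.78% of genes, and DESeq2 called 0. That member, Rps13, had the lowest fold change (-0.40, adjusted p = 0.598), with 57.3, 54.9 and 45.0 FPKM against 70.4, 64.8 and 76.1 in controls, and Rpl29 had the highest (0.48).

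The Tfeb effect with Tsc2 lost was compared with that with Tsc2 present as an interaction. Its median over the members was -0.32 (all genes -0.00245), and 70 of 76 members were negative. None of the members was called (0, against 1.63% of genes higher and 0.504% lower) by edgeR, 12 had an unadjusted p under 0.05, against 21.0% of genes, and DESeq2 called 0. For Rps6 the term was -0.44 (SE 0.19, adjusted p = 0.279) and for Rplp0 -0.43 (SE 0.22, adjusted p = 0.367). The part of this term with Tsc2 present compares libraries that held Xist with controls that lacked it.

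**Figure D3:**
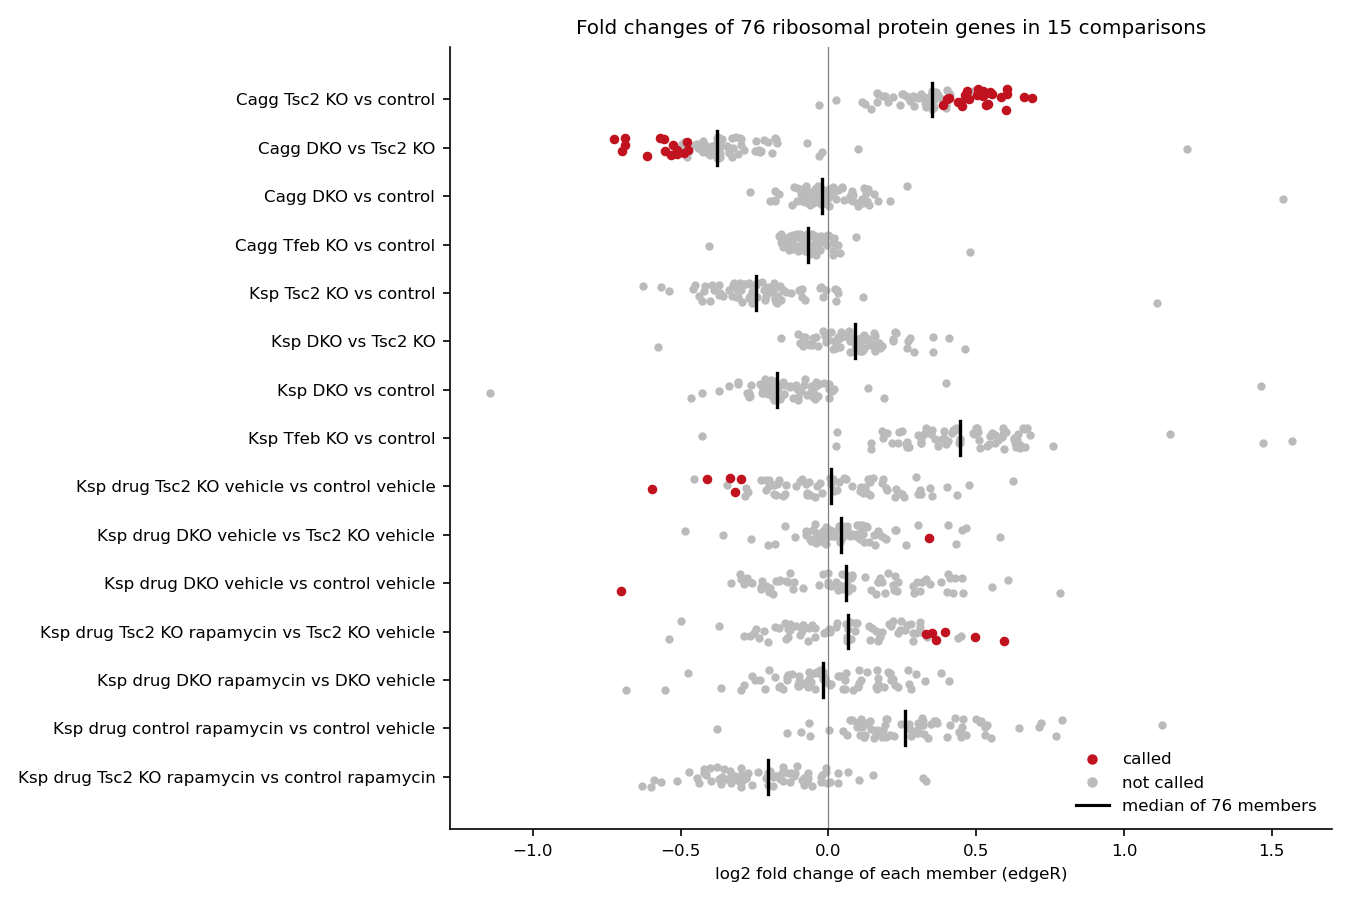
Log2 fold change of each of the 76 members in 15 comparisons, called members in red and the others in grey, with a black bar at the members' median. Among comparisons without a called member the median lies highest in Ksp Tfeb KO (0.45, and 0.19 without Tfeb KO 2) and Ksp drug control rapamycin (0.26) and lowest in Ksp Tsc2 KO (-0.24), Tsc2 KO rapamycin against control rapamycin (-0.20) and Ksp DKO against control (-0.17), and the only comparisons with more than 6 called members are the first and second, both from the Cagg cohort.

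Where Tsc2 was deleted from tubular epithelium only, the members lay on the other side. In Ksp Tsc2 KO 70 of 76 had a lower mean than in controls (median -0.24, all genes -0.01). Under scaling by library totals the median was -0.14, with 0 members at an unadjusted p of 0.05. edgeR called 0 increased and 0 decreased, against 9.42% and 8.74% of genes, with 3 members at an unadjusted p of 0.05, against 33.2% of genes, and 0 called by DESeq2. Of the members 43 had every Tsc2 KO library below every control, against 21.3% of genes, and 0 had every one above, against 22.3%. The shares of counts overlapped, at 1.67%, 1.81% and 1.73% in controls and 1.66%, 1.69% and 1.40% in Tsc2 KO.

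Rps6 shows the pattern, with 263, 261 and 244 FPKM in controls and 215, 198 and 188 in Tsc2 KO (-0.36). Those groups did not overlap, but the difference did not pass the test. Rpl35a, a large-subunit protein and a Diamond-Blackfan anaemia gene, was lowest (-0.63, SE 0.28, adjusted p = 0.178), at 39.6, 38.8 and 34.8 against 25, 24.4 and 24.0 FPKM. Rpl22 had 46.5, 46.8 and 44.8 FPKM in controls and 36.1, 31.5 and 33.6 in Tsc2 KO (-0.45). Both kept the Tsc2 KO mice below the controls.

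Rpl29 was highest (1.11, and 0.54 without the control listed at 0.297 FPKM). Proliferation markers (median 2.91) and macrophage markers (0.86) were higher and 6 of 12 proximal tubule markers decreased in the same kidneys. Summed, macrophage markers reached 65.9 to 92.4 FPKM in controls and 126 to 206 in Tsc2 KO and proximal tubule markers 2762 to 3843 and 1294 to 2231, and their part in the members' values was not tested. A fit with only these groups called 10 members decreased, against 11.0% of genes. Of the 24 other TOP genes 2 decreased and 0 increased, beside 8.74% and 9.42% of all genes.

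DKO kidneys of this line gave no called member either. Against Ksp Tsc2 KO the median was 0.09, with 59 members higher. edgeR called 0 increased and 0 decreased, against 0.117% and 0.169% of genes, 0 members had an unadjusted p under 0.05, against 13.8% of genes, and DESeq2 called 0. The median was -0.04 without DKO 1, the library rich in macrophage transcripts. Rps12, a small-subunit protein, was highest (0.46, 52.7, 41.5 and 45.2 FPKM in Tsc2 KO and 83.9, 60.4 and 47.1 in DKO) and Rps27a lowest (-0.58, 21.3, 57.8 and 19.9 FPKM against 28.1, 19.2 and 18.8). Both pairs of groups overlapped.

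Against Ksp controls 67 members were lower in DKO (median -0.17, -0.28 without DKO 1 and -0.05 under scaling by library totals). Again edgeR called 0 increased and 0 decreased, against 2.33% and 1.56% of genes, 3 members had an unadjusted p under 0.05, against 23.3% of genes, and DESeq2 called 0. Rps27a was lowest (-1.15, adjusted p = 0.174), from 55.6, 27.7 and 63.2 FPKM in controls, and Rpl29 highest (1.46). Rpl22 in DKO, at 38.1, 34.3 and 30.3 FPKM, stayed below all controls (-0.43, adjusted p = 0.210).

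Loss of Tfeb alone in the Ksp cohort gave a broad shift upward without calls. Of 76 members 75 had a higher mean (median 0.45, all genes 0.02). edgeR called 0 increased and 0 decreased, against 0% and 0% of genes, while 37 members had an unadjusted p under 0.05, against 11.2% of genes, and DESeq2 called 0. The shift rested largely on 1 mouse. The shares of counts were 2.04%, 2.82% and 1.77%, and without Tfeb KO 2 the median was 0.19.

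In that group Rps6 stood at 281, 375 and 246 FPKM (0.24) and Fau at 411, 589 and 319 FPKM against 338, 331 and 302 in controls (0.45). Both overlapped the controls. Rpl29 was highest (1.57) and Rps27a lowest (-0.43). The same 3 libraries had 20.5%, 16.9% and 12.2% of counts on mitochondrial genes, against 10.1%, 13.8% and 11.8% in controls, and the part of this in the members' values was not tested.

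As an interaction, the Tfeb effect with Tsc2 lost minus that with Tsc2 present had a median of -0.36 in the Ksp cohort, and 72 members were negative. edgeR called 0, against 0% of genes higher and 0% lower, 6 members had an unadjusted p under 0.05, against 11.4% of genes, and DESeq2 called 0. This term includes Tfeb KO 2, the library high over all members, and without it the median was -0.0926.

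**Figure D4:**
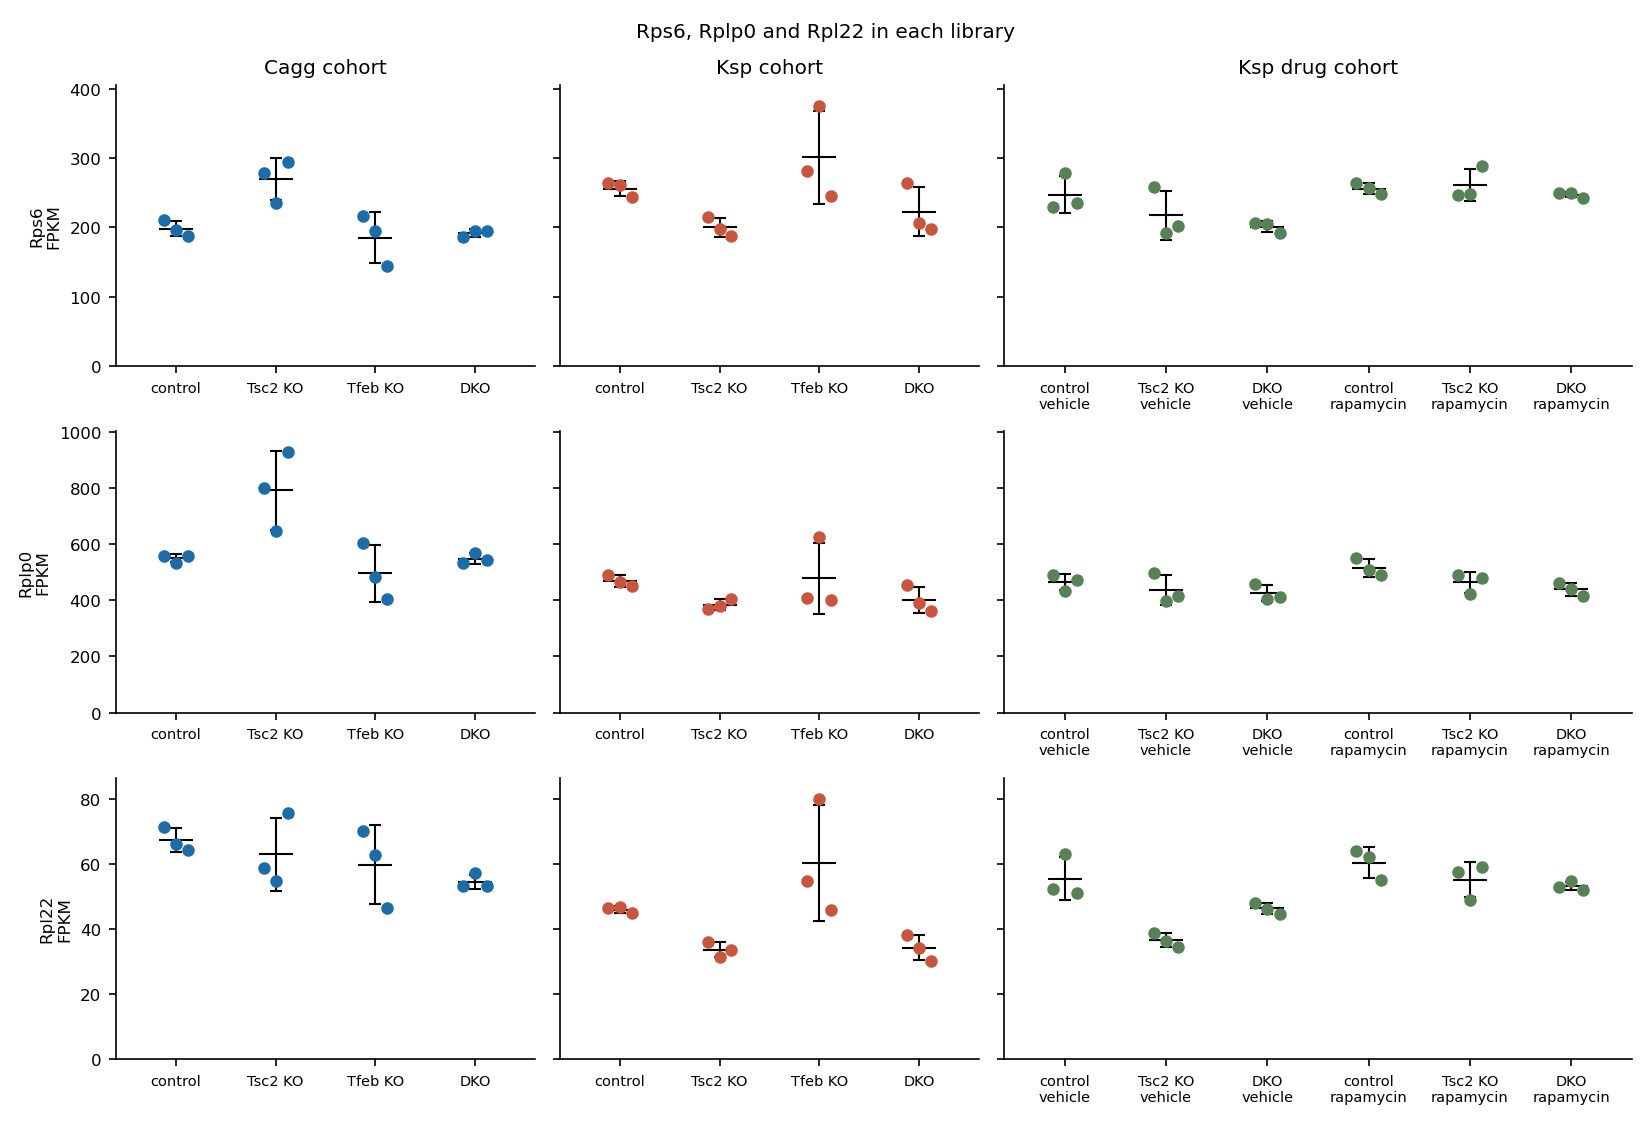
FPKM of Rps6, Rplp0 and Rpl22 in each library, one point per mouse, with the mean and SD of each group of 3 as bars. Rps6 and Rplp0 separate Tsc2 KO from control upward in the Cagg cohort and downward in the Ksp cohort, and Rpl22 is lower in Tsc2 KO vehicle (34.7 to 38.9) than in all other groups of the Ksp drug cohort.

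In the Ksp drug cohort the members went both ways between Tsc2 KO and control kidneys given vehicle. The median was 0.01 (all genes 0.00458), 40 members were higher and 36 lower. As shares of counts, unscaled, they took 1.81%, 1.56% and 1.58% in controls and 2.06%, 1.86% and 1.92% in Tsc2 KO, without overlap. edgeR called 0 increased and 5 decreased, against 23.8% and 24.6% of genes. No member had every Tsc2 KO library above every control (28.2% of genes did) and 8 had every one below (28.1%).

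Rpl22 decreased most. It was measured at 52.3, 63.2 and 51.0 FPKM in control vehicle and at 38.9, 36.4 and 34.7 FPKM in Tsc2 KO vehicle, with a gap between the groups (-0.60, SE 0.10, adjusted p = 0.000271). This call held under every alternative setting run and without any 1 library, the log2 fold change ranging from -0.66 to -0.50 when libraries were left out. Its words are largely its own, since 5.19% occur in other genes.

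The other 4 were Rpl26, a protein at the exit tunnel (-0.41, adjusted p = 0.0370), Rpl4, which reaches into the tunnel (-0.33, adjusted p = 0.0247), the small-subunit protein Rps25 (-0.32, adjusted p = 0.0445) and Rpsa (-0.30, adjusted p = 0.0226). Rpl26 overlapped between the groups, with 183, 265 and 197 FPKM in controls and 189, 142 and 154 in Tsc2 KO. Rpsa stood at 168, 179 and 168 against 153, 134 and 133 FPKM. Rps28, a small-subunit protein, had the highest fold change (0.63), at 72.0, 14.6 and 36.8 FPKM in controls, of which the second is the library low in short members, and 56.6, 59.5 and 74.4 in Tsc2 KO.

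Without a filter on low counts, and with only the groups compared, 1 member decreased. Without control vehicle 2 the median was -0.07 and 1 member decreased. Leaving out Tsc2 KO vehicle 1, 2 or 3 gave 11, 1 and 1, and without control vehicle 1 there was 1 increased member. Rpsa, Rpl26, Rpl4 and Rps25 each lost their call without control vehicle 2 or Tsc2 KO vehicle 2 or 3, and Rps25 also without control vehicle 1 or 3. Over all 17027 tested genes, not only those that could be called, scaling by library totals moved the median from 0.00908 to 0.278, by 0.269. It moved that of the members to 0.28, with 14 increased and 1 decreased. The level of the members relative to all tested genes thus stayed near 0 while the direction of calls depended on the scaling. In these kidneys macrophage markers (median 1.70) and proliferation markers (3.89) were higher and 10 of 12 proximal tubule markers decreased (-2.50). Summed, macrophage markers lay at 52.4 to 67.0 FPKM in controls and 141 to 224 in Tsc2 KO and proximal tubule markers at 3099 to 3437 and 633 to 967, and their part in the members' values was not tested. Of the 24 other TOP genes 0 increased and 4 decreased, and of 77 mitochondrial ribosomal protein genes 3 increased and 18 decreased, beside the 23.8% and 24.6% of all genes. Rps4l, a paralogue of Rps4x outside the members, rose (0.83).

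**Figure D5:**
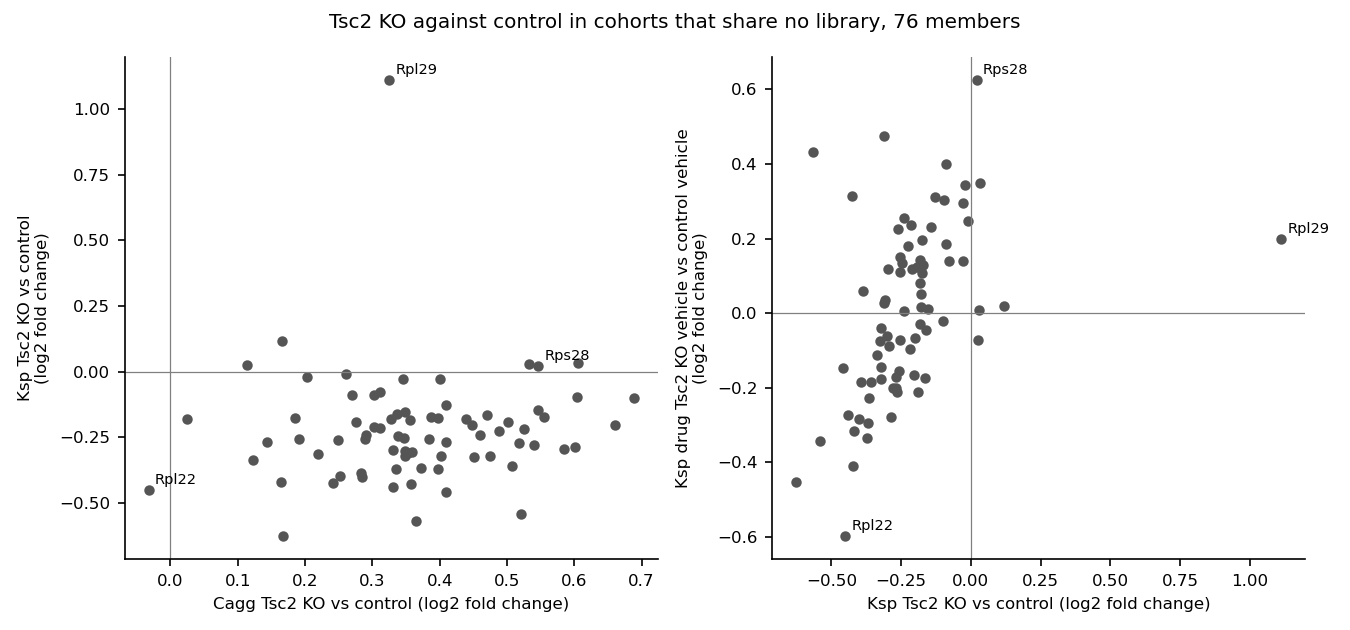
Log2 fold change of each member, Tsc2 KO against control, in the Ksp cohort against the Cagg cohort (left) and in the Ksp drug cohort (vehicle) against the Ksp cohort (right), cohorts that share no library. Nearly all points lie at positive Cagg and negative Ksp values, and Rpl22 is the only point at negative values in all 3. Its Cagg value of -0.03 has overlapping groups and turned positive without control 1, Tsc2 KO 1 or Tsc2 KO 2.

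These Tsc2 KO comparisons use separate mice, so their signs can be set side by side. Of the 76 members 35 were higher in Cagg, lower in Ksp and higher in Ksp drug, and 34 were higher, lower and lower. A further 5 (Rpl23, Rpl29, Rps16, Rps27l and Rps28) were higher in all 3 cohorts, though with values near 0 for Rpl23 in Ksp (0.0288) and Ksp drug (0.0095), for Rps16 (0.0318) and Rps28 (0.0208) in Ksp and for Rps27l in Ksp drug (0.0196), and with 1.11 for Rpl29 in Ksp, which was 0.54 without the control at 0.297 FPKM. Rpl13a was higher, higher and lower, and Rpl22 alone was lower in all 3. Its Cagg value was -0.03 with overlapping groups, and it turned positive without control 1, Tsc2 KO 1 or Tsc2 KO 2 (up to 0.0642). Signs in the Ksp drug cohort depend on the scaling, since the members' median was 0.01 and with library totals 0.28. The median also turned negative without control vehicle 2, the library low in the shorter members. Across the 76 members, which are not independent replicates, Pearson's r was 0.0794 between Cagg and Ksp, 0.138 between Cagg and Ksp drug and 0.436 between Ksp and Ksp drug, with Spearman's rho of 0.120, 0.0646 and 0.575.

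Adding the loss of Tfeb in vehicle-treated mice raised Rpl22. It stood at 48.2, 46.2 and 44.8 FPKM in DKO vehicle, above all Tsc2 KO vehicle libraries (0.34, SE 0.10, adjusted p = 0.0270). This was the 1 member increased, and 0 decreased, against 16.9% and 12.6% of genes, with a median of 0.04. Under scaling by library totals 0 increased and 3 decreased, with a median of -0.15, and Rpl22 had 0.15 (edgeR, adjusted p = 0.328). Its call was also lost without a filter on low counts and with only the groups compared. The call was lost without Tsc2 KO vehicle 2 or 3 or without any DKO vehicle library, where the log2 fold change was 0.29 to 0.38 over all libraries left out. Rpl17 was highest (0.58, adjusted p = 0.291) and Rpl29 lowest (-0.48).

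Against control vehicle, DKO vehicle had a median of 0.06 and 0 members increased and 1 decreased, against 5.37% and 3.05% of genes. The 1 was Rps12, at 61.4, 69.6 and 64.9 FPKM in controls and 34.6, 43.5 and 42.5 in DKO (-0.70, SE 0.18, adjusted p = 0.0341), all below. With library totals 0 members decreased (Rps12 -0.62, edgeR, adjusted p = 0.0513). Rps12 passed without control vehicle 1 and with each other library left out it did not. Rpl22 in DKO was still lower than in all controls (-0.26), without passing. Rps28 was highest (0.78), and without control vehicle 2 the median was -0.02.

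Rapamycin raised a few members in Tsc2 KO kidneys. Comparing rapamycin with vehicle, the median was 0.07, with 45 members higher, and 6 increased and 0 decreased, against 21.2% and 17.3% of genes. For 12 members every rapamycin library lay above every vehicle library, against 24.6% of genes. DESeq2 called 10 increased, and 2 increased without a filter on low counts and 1 with only the groups compared.

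Rpl22 rose most, to 57.7, 49.1 and 59.1 FPKM from 38.9, 36.4 and 34.7 (0.60, adjusted p = 0.000446), and that call was also kept under every setting and without any 1 library. The other 5 were large-subunit genes too, Rpl26 (0.49), Rpl4 (0.40), Rpl5 (0.36), Rpl14 (0.35) and Rpl10 (0.33). Rpl4 went from 298, 231 and 244 to 327, 329 and 360 FPKM, and Rpl26 from 189, 142 and 154 to 196, 251 and 235 FPKM. All 6 had every rapamycin library above every vehicle library. Rpl22, Rpl26 and Rpl4 are also among the 5 decreased in vehicle-treated Tsc2 KO mice, but both comparisons use the same Tsc2 KO vehicle libraries.

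The lowest was Rps28 (-0.54), with 79.1, 8.58 and 43.4 FPKM under rapamycin, the second being the library low in short members. Without that library the median was 0.17 and 7 members increased. Leaving out Tsc2 KO vehicle 1, 2 or 3 gave 14, 1 and 1 increased, and leaving out rapamycin 3 gave 1. The 1 left was Rpl22, and the other 5 lost their call without Tsc2 KO vehicle 2 or 3 or rapamycin 3, Rpl5, Rpl10 and Rpl26 also without rapamycin 2. Under scaling by library totals the median of all tested genes was -0.24 and 1 member increased, Rpl22, and 2 decreased. Macrophage markers fell (6 of 12 decreased), 11 of 12 proximal tubule markers increased and 15 of 77 mitochondrial ribosomal protein genes increased and 3 decreased in the same comparison, beside the 21.2% and 17.3% of all genes.

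In control kidneys rapamycin gave no called member. The median was 0.26 (all genes 0.000173) and 71 members were higher. edgeR called 0 increased and 0 decreased, against 0% and 0.0664% of genes, with 16 members at an unadjusted p of 0.05, against 14.5% of genes, and 0 called by DESeq2. Without control vehicle 2 the median was 0.19. Rpl7a was highest (1.13, adjusted p = 0.502), at 38.3, 9.74 and 24.2 FPKM with vehicle and 54.6, 44.3 and 58.8 with rapamycin, and Rps12 lowest (-0.38). Rpl22 had 64.1, 62.2 and 55.0 FPKM under rapamycin (0.13), overlapping the vehicle group.

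The rapamycin effect in Tsc2 KO minus that in controls was called for 1 member, Rpl22 (0.47, SE 0.15, adjusted p = 0.0315), against 17.2% of genes higher and 12.5% lower, and DESeq2 called 2. The median over the members was -0.18 and 10 had an unadjusted p under 0.05, against 44.7% of genes. With library totals 14 members were called and the median was -0.45, and with the replicate block 3 were called. The call of Rpl22 was kept with DESeq2, RLE size factors and the replicate block and lost with library totals (0.20, adjusted p = 0.360). With 1 library left out at a time, an alternative chosen after seeing the data, edgeR gave 0.37 to 0.55 (adjusted p = 0.0169 to 0.104), and the call was lost without control vehicle 2, Tsc2 KO vehicle 2 or 3, control rapamycin 3 or Tsc2 KO rapamycin 1 or 3, 6 of the 12 libraries. The number of members called was then 0 to 8.

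In DKO kidneys rapamycin called no member either. The median was -0.02, edgeR called 0 increased and 0 decreased, against 2.73% and 4.70% of genes, 5 members had an unadjusted p under 0.05, against 1930 of 7723 genes, and DESeq2 called 0. Rpl22 had 52.9, 54.7 and 52.1 FPKM under rapamycin, above the 3 vehicle libraries (0.20). Rps28 was lowest (-0.69) and Rpl29 highest (0.41). The rapamycin effect in DKO minus that in Tsc2 KO had a median of -0.06 and 0 members called, against 2.93% higher and 8.11% lower, with 2 at an unadjusted p under 0.05, against 28.5% of genes, and 0 by DESeq2. For Rpl22 the term was -0.40 (SE 0.15, adjusted p = 0.117).

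Under rapamycin, Tsc2 KO and control kidneys were set against each other last. Of 76 members 68 were lower in Tsc2 KO (median -0.20), and -0.08 without Tsc2 KO rapamycin 2. edgeR called 0 increased and 0 decreased, against 0.688% and 0.132% of genes, with 2 members at an unadjusted p under 0.05, against 14.7% of genes, and 0 by DESeq2. Rps28 was lowest (-0.63), Rps12 highest (0.33), and Rpl22 had -0.13 with overlapping groups.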

How the data were processed

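Poly-A RNA of 42 kidneys was sequenced (3 mice in each of 14 groups). The authors deposited, per cohort, a table of raw read counts per gene and a table of FPKM values, both on GRCm38. The submitters' processing notes name STAR 2.6.1d, HISAT2 2.0.5, featureCounts 1.5.0-p3, DESeq2 1.20.0 and mm10, without roles. Deposited columns of the authors' own comparisons were not used. All value columns were mapped (0 left), no 2 libraries were identical, and totals ran from 14926050 to 22807605 counts, which limits precision for members with few counts. In the Cagg cohort 4 columns differ in name between both tables, 2 with another genotype. Columns were joined by their values and named as in the FPKM table.

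Counts were tested with edgeR 4.0.16 (R 4.3.3, limma 3.58.1): filterByExpr, TMM scaling, and glmQLFit and glmQLFTest in a fit per cohort over all its groups without covariates, as group contrasts and interaction terms. Adjusted p-values are Benjamini-Hochberg over all tested genes. A call needed an adjusted p of at most 0.05 and a mean of at least 5 FPKM in a group of the contrast. Groups were said not to overlap on TMM-scaled CPM. DESeq2 1.42.0 served as an alternative. Values were prepared with Python 3.11.15 and pandas 2.3.3 and plotted with matplotlib 3.10.9. The scripts were tested on simulated data: in Cagg Tsc2 KO against control, over 16348 genes, 0, 14, 21 and 41 of 50 genes changed 1.3-, 1.6-, 2- and 4-fold were recovered, with 2 false calls among 16148.

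The members and all lists were chosen with earlier results of these data known. Named genes were Rpsa, Fau, Rps6, Rps27a, Rps27, Rps27l, Rplp0, Rplp1, Rplp2, Rpl3, Rpl10 and Rpl39, up to 6 called members with the largest increase and decrease, the highest and lowest member of each comparison, members left out by or near the minimum, and members moving against the others in all 3 Tsc2 KO comparisons. Results of 1 gene that this rule names are not reported here. Rpl7a, Rpl17, Rpl21, Rpl29 and Rpl22 were followed further after their values were seen. A list of paralogues lost Rpl9, itself a member. Tests of the pairing by replicate number found every pair's correlation over 0.1 in 1 of 15 comparisons, Ksp DKO against Tsc2 KO (0.239, 0.246 and 0.189). Alternatives were DESeq2, DESeq2's size factors, library totals, no filter on low counts, only the groups compared, a replicate block, Xist as a covariate, the names of the count table, no FPKM minimum, each library left out and, chosen after seeing the data, TMM without the members.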

Additional observations from a re-analysis of the deposited data

Results flagged for a closer look

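The effect of rapamycin on Rpl22 differed between genotypes in the test of the difference itself. Rpl22 was the 1 member called, against 17.2% of all genes higher and 12.5% lower. In Tsc2 KO mice the log2 fold change was 0.60 and in controls 0.13, and the difference was 0.47 (edgeR, SE 0.15, adjusted p = 0.0315). The call was lost with library totals (0.20) and without any 1 of 6 of the 12 libraries, where the adjusted p reached 0.104. All 3 rapamycin libraries of Tsc2 KO lay above all 3 vehicle libraries, while in controls the groups overlapped. Both effects are measured against vehicle libraries of their own genotype.

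For 25 members every Tsc2 KO library lay above every control in the Cagg cohort and below every control in the Ksp cohort, as was so for 1.13% of the 7335 genes that could be called in both. Members of a library share its level, so the 25 are not independent and their number carries no test. With Xist as a covariate 0 members were called in the Cagg cohort, with a median of 0.30 over the members against 0.35 without it. In the Ksp cohort 0 were called. Rps6 had log2 fold changes of 0.51 and -0.36, Rplp0 0.58 and -0.29, and Rps12 0.52 and -0.54. The difference between the cohorts was not tested, because they differ in Cre line, age, sex and control genotype, which cannot be told apart.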

How the results depend on the processing

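Depth allows calls of 2-fold changes in part of the genes only, and 3 mice a group make counts of calls depend on single libraries. Leaving out 1 library at a time gave 7 to 36 increased members in Cagg Tsc2 KO (without control 3, without Tsc2 KO 2) and 0 to 23 decreased in Cagg DKO against Tsc2 KO (without DKO 3, without Tsc2 KO 2). In the Ksp drug cohort it gave 1 to 11 decreased and 0 to 1 increased in Tsc2 KO vehicle, 0 to 1 increased in DKO against Tsc2 KO vehicle, 0 to 1 decreased in DKO against control vehicle and 1 to 14 increased under rapamycin in Tsc2 KO. Leaving out libraries in the interactions was chosen after seeing the data. It gave 0 to 8 called for rapamycin in Tsc2 KO minus control (without control vehicle 2, without control vehicle 1), and a median from -0.54 to -0.0926 (without Tfeb KO 2) for the Ksp Tfeb interaction. The cause of these moves, and of those below, was not tested. Counts under alternative settings stand without the share of all genes called under the same setting, except where it is given.

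In Cagg Tsc2 KO against control, scaling by library totals gave 42 increased members, Xist as a covariate 0, and 13 increased under the names of the count table. In Cagg DKO against Tsc2 KO, DESeq2 gave 24 decreased, library totals 50 and only the groups compared 6. Xist as a covariate gave 2 decreased, against 4.22% of genes, and without a filter on low counts 1 increased. In Cagg DKO against control 1 increased without that filter, and 1 increased and 1 decreased with only the groups compared. In Ksp Tsc2 KO the median was -0.14 with library totals, and 10 decreased with only the groups compared, against 11.0% of genes.

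Library totals moved the median over all tested genes by 0.269 in Tsc2 KO vehicle, -0.19 in DKO against Tsc2 KO vehicle, -0.218 in Tsc2 KO rapamycin, 0.12 in Ksp DKO against control and 0.103 in Ksp Tsc2 KO. Tsc2 KO vehicle then gave 14 increased, 1 decreased and a median of 0.28, DKO against Tsc2 KO vehicle 0, 3 and -0.15, and Tsc2 KO rapamycin 1, 2 and -0.15. DKO against control vehicle gave 0 decreased, the rapamycin effect in Tsc2 KO minus that in control 14 called with a median of -0.45, and that in DKO minus Tsc2 KO a median of 0.14. Without the filter, and with only the groups compared, Tsc2 KO vehicle gave 1 decreased, DKO against Tsc2 KO vehicle 0 increased, and Tsc2 KO rapamycin 2 and 1 increased. With only the groups compared DKO rapamycin gave 1 decreased. DESeq2 gave 10 increased in Tsc2 KO rapamycin and 2 called in its interaction with control.

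The replicate block gave 5 decreased in Cagg DKO against Tsc2 KO, 1 decreased in Ksp Tsc2 KO and 3 called in the interaction of rapamycin in Tsc2 KO and control. It also gave 18 increased in Cagg Tsc2 KO, 6 decreased in Tsc2 KO vehicle and 7 increased in Tsc2 KO rapamycin, and the other 28 of 34 counts of members were equal with and without it.

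Of the genes named, signs turned for values near 0 or with 1 extreme library. Over libraries left out, Rpl22 in Cagg Tsc2 KO ran from -0.18 to 0.0642 (without Tsc2 KO 2), Rps6 in Cagg DKO against control from -0.0421 to 0.0290 (without control 1), and Rpl29 in Cagg Tfeb KO from -1.08 (without Tfeb KO 1) to 1.29. In Ksp DKO against Tsc2 KO, Rps27a ran from -0.84 to 0.10 (without Tsc2 KO 2) and Rpl22 from -0.0597 (without DKO 1) to 0.10. Rps27l in Cagg DKO against Tsc2 KO was -0.00514 with the names of the count table. Of the remaining values of named genes 1019 kept direction and side of the threshold, 138 lost and 13 gained a call.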
